A study of Homo sapiens with 26 samples.

Results

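The genes described here are 50 genes of DNA repair and the DNA damage checkpoint, read in 26 human B-cell cancer cell lines. They were chosen by name, as members of homologous recombination, the Fanconi anaemia pathway, the damage checkpoint, nucleotide excision repair, direct reversal of alkylation and end joining, together with a pair of DNA ligases. Of the 50 genes, 45 were represented by a probe-set with a single gene symbol, out of 19775 such genes on the array. BRCA2, RBBP8, FANCA and FANCD2 had no probe-set in the annotation used here, and ATRIP appeared only in probe-sets that also carry a second symbol, so these 5 members are named and not described further. Each gene was read from its probe-set of the highest mean over the 26 lines, and 30 of the 45 genes had at least 1 further probe-set.

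The panel held 14 lines of diffuse large B-cell lymphoma (DLBCL), a tumour of mature B cells, and 12 lines of multiple myeloma (MM), a tumour of plasma cells. All lines were untreated and harvested in exponential growth, and each was hybridised to 1 array, so that the lines themselves are the replicates and their number sets how precise a mean can be. KMS-12-BM and KMS-12-PE are sister lines and so are not independent replicates of MM. The DLBCL group contains MC-116, which the labels give as an undifferentiated lymphoma, and the MM group contains AMO-1, given as a plasmacytoma. Resistance was given in the labels as AUC0, the area under the positive part of a dose response curve of growth rates, where higher values mean greater resistance, for cyclophosphamide (C, with mafosfamide as surrogate) in 24 lines, doxorubicin (H) in 26 lines and vincristine (O) in 24 lines. Expression is given on the log2 scale throughout, so that a difference of 1 is a doubling, and genes are compared between lines, not with each other. A value near the median of all probe-sets on an array is only given as a marker of low signal, since probe-sets differ in their background. Neither scan dates nor batches are labelled, and values within batches are therefore not given.

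Cells mend DNA by several routes. Homologous recombination copies the sister chromatid across a double-strand break, end joining ligates the broken ends directly, nucleotide excision repair cuts out bulky damage, and the Fanconi anaemia proteins unhook the crosslinks that alkylating agents leave between strands. ATM and ATR sense the damage and, through CHEK2, CHEK1 and WEE1, hold the cell cycle. Mafosfamide crosslinks DNA and doxorubicin traps topoisomerase on it, whereas vincristine binds tubulin, which makes it the drug in the panel that does not act on DNA.

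The labelled diseases were checked against their markers. PAX5, the factor that keeps B-cell identity, had its lowest value in DLBCL at 10.17 and its highest in MM at 7.15. All 5 measured B-cell markers were lower and 5 of 6 plasma cell markers were higher in MM. None of the 5 T-cell, 5 myeloid or 7 stromal and endothelial markers differed in limma's test, and the mean of each of these lists lay between 4.65 and 6.43 in every line. Single markers reached higher values, DCN up to 10.44 and CD8A up to 7.08 in DLBCL, and S100A8 up to 9.92 and CD3E up to 7.31 in MM. The mean of 28 proliferation genes, none of which is a member, ranged from 10.37 to 11.26 in the DLBCL lines and from 9.52 to 10.80 in the MM lines. In MM 8 of these 28 genes were lower and 0 higher (median difference −0.43), which runs beside the comparison of the diseases below.

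In the MM lines 9 repair genes were lower than in the DLBCL lines and 3 were higher. The lower genes were LIG4 of end joining, ERCC5 and XPC of nucleotide excision repair, RAD54L and BRCA1 of homologous recombination, BRIP1 of the Fanconi pathway, the checkpoint genes WEE1 and TP53BP1, and the replicative ligase LIG1. The higher genes were ERCC4, FANCF and LIG3. Called members thus made up 26.7% of the 45, where limma called 10.9% of all 33297 probe-sets at an adjusted p under 0.05, 5.4% lower in MM and 5.49% higher. Among the brighter probe-sets, those with a mean of at least 5, the share called was 16%. The median difference of the 45 genes was −0.32 against −0.02 over all probe-sets, and 37 of the 45 were below 0. In none of the 45 genes were the DLBCL and the MM lines fully apart, and how many of all genes were is not given here.

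**Figure D1:**
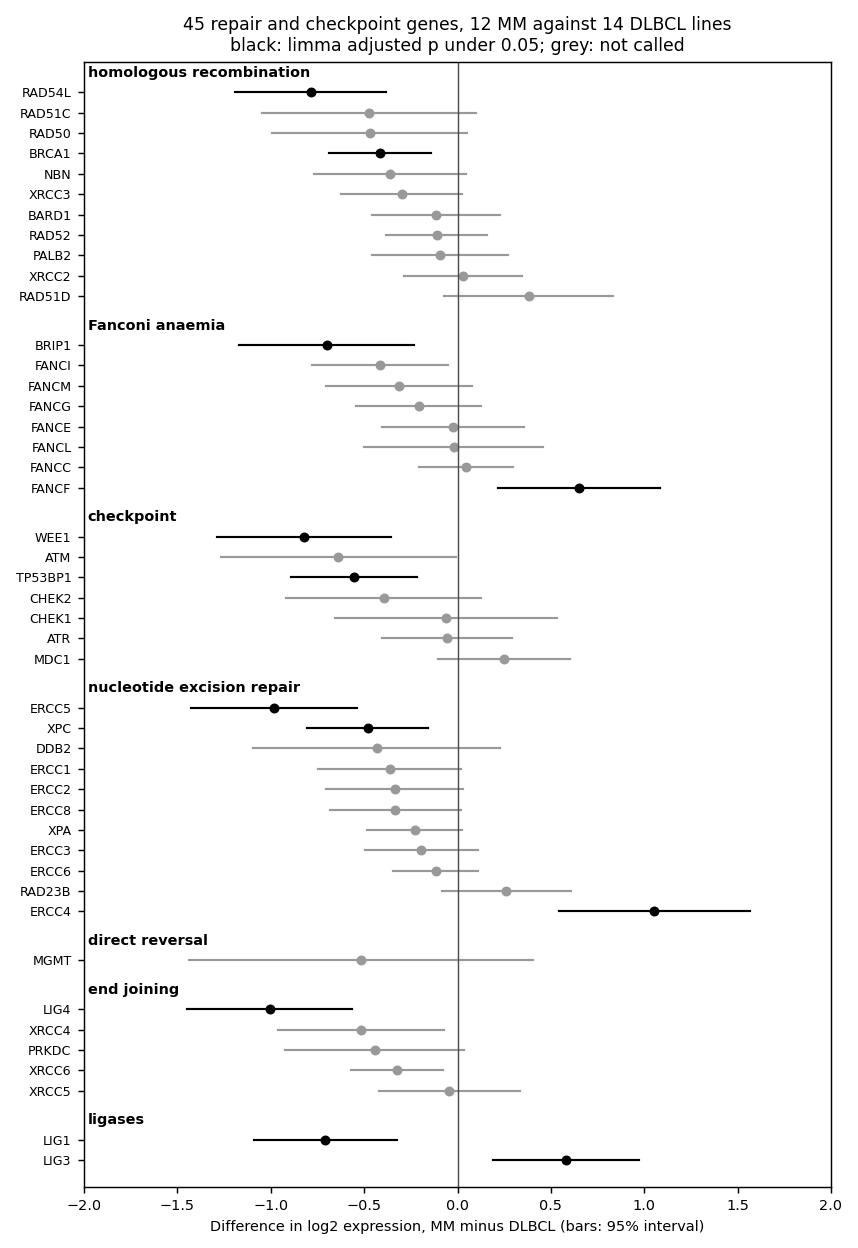
Difference in log2 expression between 12 MM and 14 DLBCL lines for 45 repair genes grouped by role. Points are limma estimates, bars are 95% intervals, and black marks the 12 genes called. Most points lie left of 0, and ERCC4, FANCF and LIG3 are the called genes on the right.

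In homologous recombination, 2 of 11 genes were called, both lower in MM, with a median difference of −0.30. RAD54L, a motor protein that helps the recombinase search for its partner strand, lay between 7.85 and 9.62 (median 8.71) in the DLBCL lines and between 7.44 and 8.89 (median 7.78) in the MM lines. All but 1 of the 12 MM lines were under the DLBCL median, and 8 were under the lowest DLBCL line. The difference was −0.79 (SE, the standard error, 0.20; adjusted p = 0.00927 from limma). BRCA1, which brings the recombinase to the break, lay between 8.70 and 9.62 (median 9.22) in DLBCL and between 8.16 and 9.52 (median 8.84) in MM. The groups overlapped over most of that range, although 11 of 12 MM lines were under the DLBCL median. Its difference was −0.42 (SE 0.13, adjusted p = 0.0416 from limma), and the call was lost on leaving out any 1 of 15 of the 26 lines.

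The other 9 genes of homologous recombination did not pass in the probe-set chosen for each. The recombinase paralogues RAD51C, RAD51D, XRCC2 and XRCC3 had differences of −0.48, 0.38, 0.03 and −0.30. RAD50 and NBN, 2 subunits of the complex that holds broken ends, had −0.47 and −0.36, and the BRCA1 partners BARD1 and PALB2 had −0.12 and −0.09. RAD52, which anneals single strands, had −0.11 in its chosen probe-set. Its further probe-sets gave −0.69, −0.60 and −0.16, with adjusted p = 0.048, 0.083 and 0.359 from limma. The reading of RAD52 thus depended on the probe-set, and the lowest of these differences was called. RAD51C varied most of the 11 genes (SD 0.76 over 26 lines), with its lowest value of 7.46 in LP-1 and its highest of 10.38 in U-266.

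In the Fanconi pathway 1 of 8 genes was lower and 1 higher in MM (median −0.12). BRIP1, the helicase that binds BRCA1, lay between 7.43 and 9.56 (median 8.83) in DLBCL and between 7.16 and 9.04 (median 7.98) in MM, and its difference was −0.70 (SE 0.23, adjusted p = 0.0473 from limma). Again 11 of 12 MM lines were under the DLBCL median, and NCI-H929 and LP-1 were the lowest lines. The second BRIP1 probe-set gave −0.64 and did not pass when tested on its own (adjusted p = 0.0845 from limma). FANCF, an adaptor of the core complex, went the other way, from 7.16 to 9.17 (median 8.18) in DLBCL and from 8.16 to 9.86 (median 8.84) in MM. Of the MM lines 11 of 12 were above the DLBCL median, and FARAGE was the lowest line. Its difference was 0.65 (SE 0.21, adjusted p = 0.0465 from limma), and its second probe-set gave 0.69. Both calls were fragile, being lost on leaving out any 1 of 18 lines for BRIP1 and of 19 lines for FANCF. FANCI, which is clamped onto DNA with its partner FANCD2, had −0.42 and did not pass (adjusted p = 0.137 from limma). Of its further probe-sets, one with −0.53 was called (adjusted p = 0.046 from limma). The remaining one, with −0.33, was not (adjusted p = 0.369 from limma). The helicase FANCM had −0.31, the core members FANCG, FANCE, FANCC and the ligase FANCL had −0.21, −0.02, 0.05 and −0.02.

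Among the checkpoint genes 2 of 7 were called, both lower in MM (median −0.40). WEE1, the kinase that holds CDK1 inactive before mitosis, lay between 10.45 and 11.88 (median 11.12) in DLBCL and between 9.05 and 11.35 (median 10.38) in MM. Of the MM lines 6 of 12 were under the lowest DLBCL line, with RPMI-8226 and NCI-H929 at the bottom. The difference was −0.82 (SE 0.23, adjusted p = 0.0184 from limma), and −1.03 from the second probe-set. TP53BP1, which steers broken ends to end joining, lay between 8.88 and 10.14 (median 9.08) in DLBCL and between 7.87 and 9.44 (median 8.74) in MM, with 8 of 12 MM lines under the lowest DLBCL line. Its difference was −0.56 (SE 0.16, adjusted p = 0.0274 from limma). The 3 further TP53BP1 probe-sets gave −0.68, −0.35 and −0.33, and only the first of these was called when tested on its own.

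The sensor kinase ATM did not pass (−0.64, adjusted p = 0.194 from limma), and its values spread more in MM (SD 0.998, n = 12) than in DLBCL (SD 0.59, n = 14), a difference in spread that was not tested. KMS-11 at 6.93, KMM-1 at 7.33 and U-266 at 7.66 were the lowest lines, and DB at 10.14 was the highest. The further ATM probe-sets gave differences from −0.62 to −0.23, and none was called when tested on its own. The related kinase ATR differed by −0.06, the effector kinases CHEK1 and CHEK2 by −0.06 and −0.40, and the scaffold MDC1 by 0.25. Further CHEK1 probe-sets differed in sign, at −0.18, 0.49 and 0.15, and none was called.

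In nucleotide excision repair 2 of 11 genes were lower and 1 higher in MM (median −0.33). ERCC5, the nuclease that cuts on the 3′ side of the damage, lay between 7.87 and 9.28 (median 8.59) in DLBCL and between 6.53 and 8.85 (median 7.66) in MM. All but 1 of the MM lines were under the DLBCL median and 7 were under the lowest DLBCL line, U-266 being the lowest. The difference was −0.98 (SE 0.22, adjusted p = 0.00348 from limma). ERCC4, the nuclease that cuts on the other side and also acts in crosslink repair, lay between 5.50 and 7.21 (median 6.61) in DLBCL and between 6.36 and 8.94 (median 7.52) in MM. Here 8 of 12 MM lines were above the highest DLBCL line, with KMS-12-BM highest. The difference was 1.06 (SE 0.25, adjusted p = 0.006 from limma), and 0.71 from the second probe-set.

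ERCC1, the partner without which the ERCC4 nuclease is unstable, had −0.36 and did not pass (adjusted p = 0.23 from limma). XPC, which finds distorted helices, differed by −0.48 (SE 0.16, adjusted p = 0.0477 from limma), with 5 of 12 MM lines under the lowest DLBCL line, and lost the call on leaving out any 1 of 18 lines. Its cofactor RAD23B had 0.26. The helicase subunits ERCC2 and ERCC3 had −0.34 and −0.19, the damage verifier XPA had −0.23, and ERCC6 and ERCC8, which couple the pathway to transcription, had −0.12 and −0.33. DDB2, which recognises ultraviolet damage and is a target of p53, had −0.43 with an SD of 1.01 over the 14 DLBCL lines, where MC-116 at 6.52 and OCI-Ly7 at 6.99 were far under the group median of 8.97.

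Of the 5 end joining genes 1 was called, and all 5 were below 0 (median −0.44). LIG4, the ligase that seals the joined ends, lay between 7.03 and 9.21 (median 7.89) in DLBCL and between 5.93 and 7.73 (median 6.92) in MM. Every MM line was under the DLBCL median, and 6 of 12 were under the lowest DLBCL line. The difference was −1.01 (SE 0.21, adjusted p = 0.0026 from limma), the smallest p of the 45 genes, and −1.18 from the second probe-set. XRCC4, the scaffold that binds LIG4, had −0.52 (adjusted p = 0.132 from limma). The Ku subunits XRCC5 and XRCC6, which cap the ends, had −0.04 and −0.32, and PRKDC, the kinase they recruit, had −0.44.

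The remaining ligases went in opposite directions. LIG1, which joins Okazaki fragments, lay between 8.31 and 9.83 (median 9.19) in DLBCL and between 7.66 and 9.23 (median 8.44) in MM, and differed by −0.71 (SE 0.19, adjusted p = 0.0136 from limma). LIG3, which seals nicks in base excision repair and in mitochondria, lay between 6.87 and 8.58 (median 8.07) in DLBCL and between 7.72 and 9.57 (median 8.44) in MM, and differed by 0.58 (SE 0.19, adjusted p = 0.0474 from limma). For LIG1 5 of 12 MM lines were under the lowest DLBCL line, and for LIG3 4 were above the highest. Of the 5 further LIG3 probe-sets 4 had the same sign, and 2 of these were called when tested on their own. The LIG3 call was lost on leaving out any 1 of 18 lines.

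**Figure D2:**
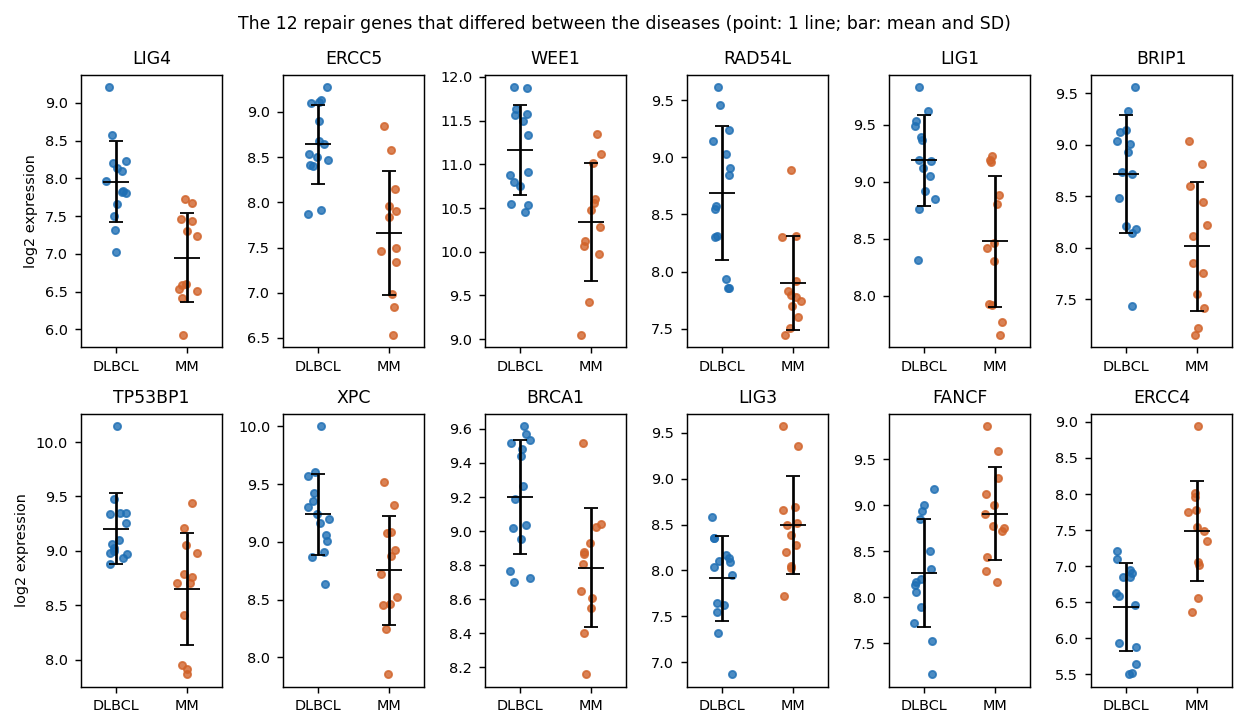
Log2 expression of the 12 called genes in 14 DLBCL lines (blue) and 12 MM lines (orange). Each point is 1 line and bars give the mean and SD; the 9 genes that were lower in MM come first, and the groups overlap in every panel.

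The count depended on single lines. It was 7 of 45 without SU-DHL-5 and also 7 without OPM-2, and 8 to 11 without any other line. RAD54L, ERCC5, ERCC4, LIG4, LIG1 and WEE1 were called whichever line was left out. TP53BP1 lost the call without MM1S, NCI-H929 or RPMI-8226, with an adjusted p of at most 0.0522 from limma. Without KMS-12-PE, the sister of KMS-12-BM, 9 genes were called, and FANCF, XPC and LIG3 were not, which leaves ERCC4 as the 1 gene higher in MM. With a trended and robust prior 7 genes were called, and BRCA1, BRIP1, FANCF, LIG3 and XPC were not, at adjusted p between 0.0502 and 0.0563 from limma. With the mean of the 28 proliferation genes as a covariate, 7 genes were called, 4 lower and 3 higher, and the median difference of the 45 genes was −0.10. LIG4, ERCC5, XPC, ERCC4 and LIG3 kept the call, ATM and RAD51D were then called at −1.08 and 0.72, and 7 genes were not. The differences of these were then −0.41 for RAD54L, −0.18 for BRCA1, −0.28 for BRIP1, −0.48 for WEE1, −0.38 for TP53BP1 and −0.42 for LIG1. That of FANCF was 0.65 with and without the covariate (adjusted p = 0.116 from limma). A smaller share of cells in S phase and less of an RNA per cell cannot be told apart in these bulk arrays.

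Across the lines of a disease, several members moved together with the proliferation mean. With each disease centred on its mean, the correlation over 26 lines was above 0.5 for 18 of 45 members, or 40%, and for 4.96% of all genes. These values are descriptions, since members and proliferation genes were read from the same arrays and the pair of KMS-12 lines is not independent. PRKDC had the highest correlation (0.73), followed by RAD54L (0.665), CHEK1 (0.65), XRCC5 (0.64) and FANCI (0.64). RPMI-8226 was the lowest line both in PRKDC, at 8.45, and in the proliferation mean, at 9.52. Correlations without that line are not given. The medians by role were 0.53 for homologous recombination, 0.58 for the Fanconi genes, 0.58 for end joining and −0.07 for nucleotide excision repair, where 0 of 11 genes were above 0.5. ATM (−0.49), ERCC1 (−0.42) and MGMT (−0.35) were at the other end.

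**Figure D3:**
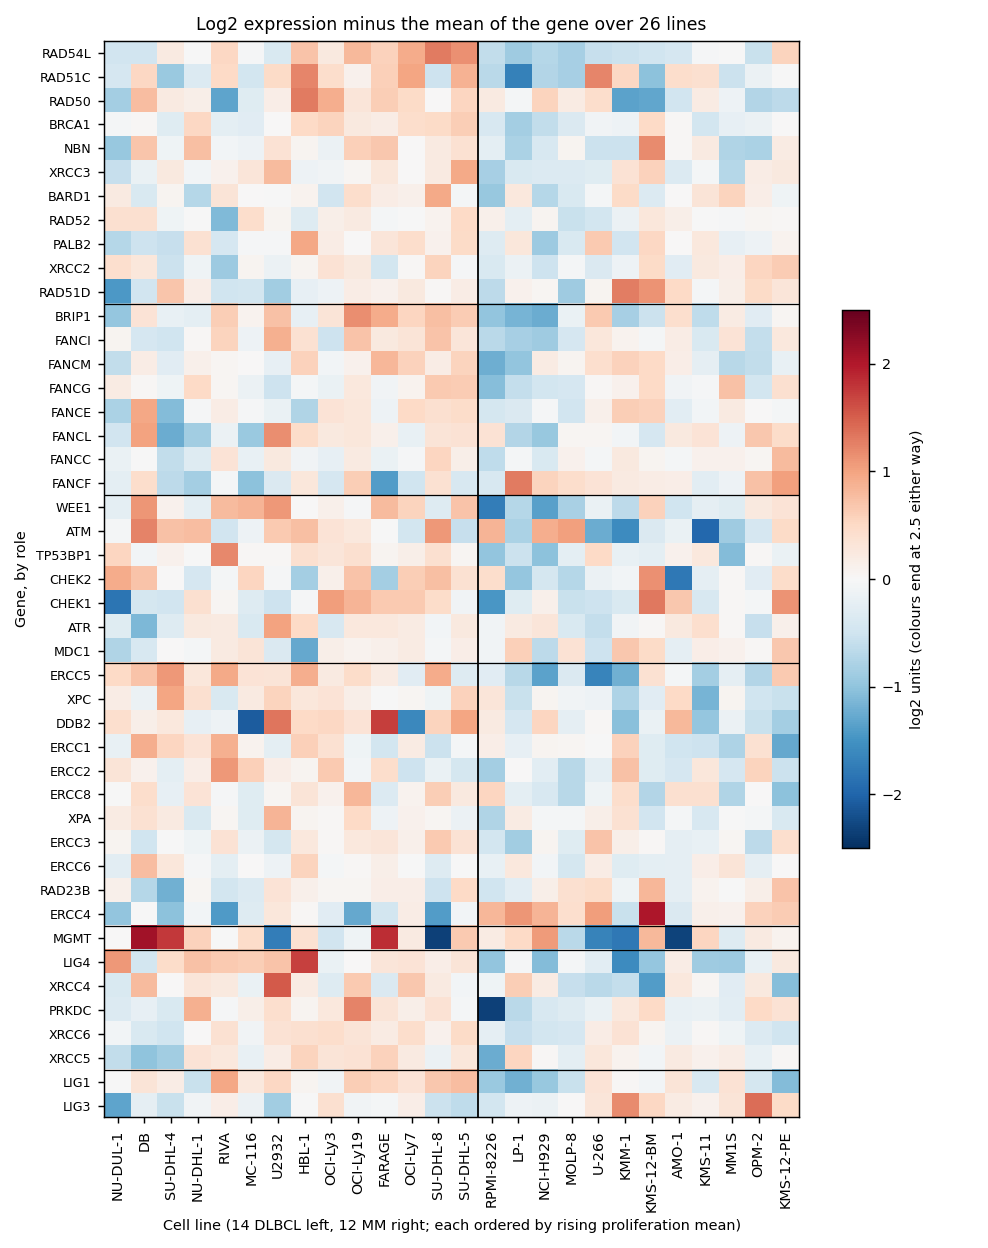
Log2 expression of 45 repair genes in 26 lines, each minus the mean of the gene; red is above and blue below it. Lines run from low to high proliferation mean within each disease. Homologous recombination and Fanconi genes are mostly blue in RPMI-8226, LP-1 and NCI-H929 at the left of the MM block. MGMT, ATM, DDB2 and ERCC4 each have several lines far from the mean of the gene.

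One line stood out as the lowest of the panel. RPMI-8226 had the lowest value of 26 lines in 10 of the 45 members, or 22.2%, while it was lowest in 5.63% of all genes. It also had the lowest proliferation mean, 9.52. LP-1 was lowest in 6 members (13.3%, against 7.03% of all genes) and had the next lowest proliferation mean, 10.0. Whether low proliferation accounts for these lows was not tested.

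The 990 pairs of members had a median correlation of 0.08 over the 26 lines, again with the diseases centred, and 52 pairs were above 0.5. The closest were FANCC with FANCI (0.68), BRIP1 with LIG1 (0.67), and RAD51C with XRCC6 (0.66). The most opposed pairs were FANCE with LIG4 (−0.65) and FANCI with MGMT (−0.62).

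MGMT, which takes alkyl groups off guanine by transferring them to itself, varied more between lines than any other member. It was lowest in SU-DHL-8 at 5.90, AMO-1 at 5.94, KMM-1 at 6.45, U2932 at 6.52 and U-266 at 6.57, and highest in DB at 10.33, FARAGE at 10.09 and SU-DHL-4 at 10.00. Both diseases thus held low and high lines. In the 14 DLBCL lines it ranged from 5.90 to 10.33 (median 8.55) and in the 12 MM lines from 5.94 to 9.31 (median 8.38), and the difference of −0.52 did not pass (adjusted p = 0.512 from limma). Its SD over the 26 lines was 1.18, which 9.23% of all genes exceeded, while the members' median SD was 0.51 and that of all genes 0.41. The lowest MGMT values lay just above the medians of all probe-sets on the arrays, 5.65 to 5.72, which does not tell whether the gene is expressed there. The gene has a single probe-set here, so no second reading of these lows exists.

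**Figure D4:**
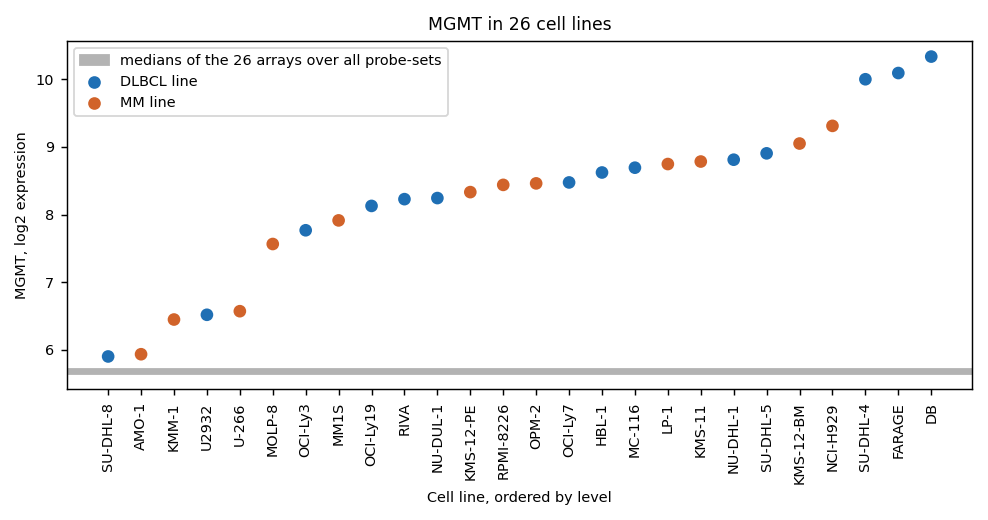
MGMT log2 expression in 26 cell lines ordered by level, with DLBCL lines in blue and MM lines in orange. The grey band gives the range of the array medians. SU-DHL-8 and AMO-1 sit closest to the band, 5 lines lie under 7, and the top 3 lines are DLBCL.

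The MGMT promoter is printed because methylation of its CpG sites is known to silence the gene in tumours; methylation was not measured here. Promoter sequences were from RefSeq on GRCh38.p14, whose table held 40 of the 45 measured members and not NBN, FANCI, WEE1, XRCC5 or PRKDC. The 250 bases before the start site of MGMT, chr10:129466991-129467240 on the plus strand, hold 36 CpG sites, given in capitals. The median of the 15384 genes that have a promoter and a probe-set is 18 CpG sites, and 6.44% of them have 36 or more. No other of the 40 members does, but RAD51D has 35, and FANCC and RAD23B have 33 each.
MGMT: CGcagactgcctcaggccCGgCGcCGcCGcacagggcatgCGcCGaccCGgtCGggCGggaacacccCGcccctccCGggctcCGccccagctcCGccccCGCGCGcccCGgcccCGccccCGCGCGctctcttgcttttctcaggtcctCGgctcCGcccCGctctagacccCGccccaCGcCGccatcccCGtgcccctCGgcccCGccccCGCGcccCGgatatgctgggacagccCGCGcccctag

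The promoters of the genes lower in MM were searched for a letter match to the E2F element of cell cycle genes, spelled TTTCCCGC, TTTCGCGC, TTTGCCGC or TTTGGCGC, on both strands. A match was present in 2 of the 8 genes lower in MM that the table holds, LIG1 and XPC, in 0 of the 3 higher genes, in 3 of all 40 members, the third being FANCC, and in 3.64% of all genes. The stretches that hold them are shown with the match in capitals, LIG1 at chr19:48170435-48170474 and XPC at chr3:14178812-14178851, both read from the minus strand. A match is a run of letters and not a measured site, and a single start site per gene was searched. The correlation with the proliferation mean was 0.535 for LIG1 and −0.29 for XPC.
LIG1: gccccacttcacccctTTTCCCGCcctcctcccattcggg
XPC: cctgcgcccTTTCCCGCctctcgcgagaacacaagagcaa

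A line was called low for a gene where it was at least 2 log2 units under the mean of the gene's 5 highest lines and under the median of its array. Only ERCC4 met this, in 3 DLBCL lines, RIVA at 5.50, SU-DHL-8 at 5.51 and OCI-Ly19 at 5.65, against 8.09 in its 5 highest lines. In the second ERCC4 probe-set the same 3 lines were the lowest of the panel, at 5.56, 5.65 and 5.56, but did not meet the rule. Without the condition on the array median, which was dropped after the MGMT values were seen, 40 pairs of a gene and a line were low, in 17 genes, and the only genes with 5 or more such lines were MGMT with 6 and ERCC4 with 5. Of the 26 pairs with another probe-set, 13 were low there too. The rule was read in the members only, and the share of all genes with such lines is not given. These counts therefore do not tell whether such lows are more common among repair genes.

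Single lines stood apart in several genes. PRKDC was 8.45 in RPMI-8226, where the next line had 10.1, and that line was also the lowest in both other PRKDC probe-sets. CHEK2 was 6.98 in AMO-1 and 7.79 in the next line. LIG4 was 5.93 in KMM-1, and 4.90 in the second probe-set, the lowest line in each. XRCC4 was 6.62 in KMS-12-BM, the lowest line in all 4 of its probe-sets. Its sister line KMS-12-PE was next at 6.95, so this low was not that of a single line. RAD51C was 7.46 in LP-1, the lowest line in the second probe-set too, where LP-1 had 7.61 and KMS-12-BM was close at 7.80.

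Beyond the members, 90 other repair genes were read, a list written with earlier results of these data known. Over all 33297 probe-sets, limma called 5.4% lower and 5.49% higher in MM. Among probe-sets with a mean of at least 5, 16% were called in either direction. No list was tested against these shares. Of 20 other homologous recombination genes 6 were lower in MM, as were 3 of 7 translesion synthesis genes, 2 of 6 other Fanconi genes, 1 of 4 mismatch repair genes, 1 of 7 other end joining genes, 1 of 14 other checkpoint genes and 2 of 18 base excision repair genes. In base excision repair 1 gene was higher, and none of 12 other nucleotide excision repair genes or of 2 other direct reversal genes passed, at the lowest adjusted p = 0.074 and 0.0754 from limma. RAD51B, a recombinase paralogue, had the smallest p, with a difference of −1.96 (adjusted p = 2.5e-07 from limma). RAD51AP1, which stimulates the recombinase, fell by 1.10, USP1, which removes ubiquitin from FANCD2, fell by 0.82, and REV1, a translesion polymerase, fell by 0.77. The helicase BLM, RAD18, MAD2L2, TDP1, FAAP24 and APEX1 followed, with differences between −0.74 and −0.50.

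Resistance to the drugs that act on DNA was set against resistance to vincristine. No member passed limma's test for any drug (adjusted p of 0.873 or more in the fits on AUC0), nor did any of the 33297 probe-sets. At an unadjusted p under 0.05, 2 members followed the AUC0 of C, 1 that of H and 4 that of O, where 3.97%, 4.97% and 5.68% of all probe-sets did. A slope is the change in log2 expression per 100 units of AUC0 with a term for disease. For C the ubiquitin ligase FANCL had a slope of 0.40 (95% interval 0.00 to 0.80) and FANCG one of −0.33 (unadjusted p = 0.0498 and 0.0499 from limma). For H it was DDB2, at −0.87 (95% interval −1.53 to −0.21, unadjusted p = 0.0115, adjusted p = 0.973 from limma).

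The DDB2 slope was −0.87 in the DLBCL lines alone and −0.88 in the MM lines alone, and lay between −1.02 and −0.67 when each line was left out. The DLBCL lines of low DDB2, OCI-Ly7 and MC-116, had an AUC0 for H of 325 and 272, and FARAGE, the highest at 10.3, had 180. U2932, with the second highest DDB2 at 9.94, went against the slope with an AUC0 of 295 and the label resistant. For O, FANCF had a slope of 0.97 (unadjusted p = 0.0145 from limma), and XRCC6, BRIP1 and RAD23B had slopes of −0.42, −0.87 and −0.56.

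Put on one scale, per SD of AUC0 within a disease, the members' slopes had a median of 0.01 for both C and H and of −0.05 for O, where the medians of all probe-sets were within 0.01 of 0. For O 32 of 45 slopes were below 0, for C 22 and for H 20. Of the 28 proliferation genes 26 had slopes below 0 on the AUC0 of O, and 7 of these had an unadjusted p under 0.05. With the proliferation mean as a covariate, the median slope of the members on O went from −0.18 to 0.05 per 100 units.

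**Figure D5:**
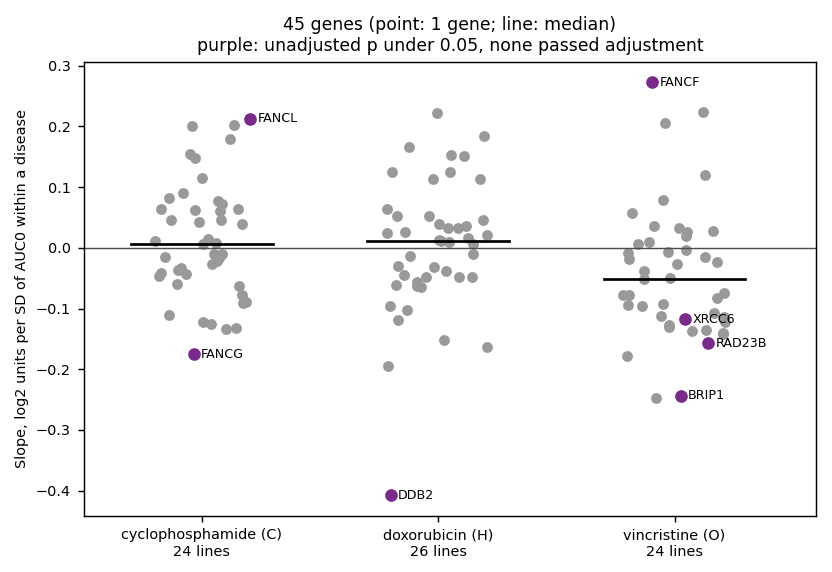
Slopes of 45 repair genes on AUC0 for C, H and O, in log2 units per SD of AUC0 within a disease. Each point is a gene, black lines are medians, and purple marks an unadjusted p under 0.05. DDB2 lies lowest for H at −0.41, and the points for O centre under 0.

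No MGMT slope passed for any of the 3 drugs. Its slope per SD of AUC0 was −0.12 for C (95% interval −0.64 to 0.39), 0.05 for H (−0.44 to 0.53) and 0.03 for O (−0.48 to 0.55), and slopes within those bounds cannot be told from 0 in these lines. Per 100 units of AUC0 it was 0.03 in the DLBCL lines alone and −0.72 in the MM lines alone on C, −0.11 and 0.50 on H, and −0.83 and 1.01 on O. None of these passed, and the interaction of disease and AUC0 called no member.

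Whether a gene followed a drug that acts on DNA more than vincristine was tested with the difference of the standardised AUC0 values. No member and no probe-set passed for C against O, H against O, or the mean of C and H against O. Of the members 5 had an unadjusted p under 0.05 in each, where 5.46%, 6.35% and 7.24% of all probe-sets did. The 3 tests share the AUC0 of O. DDB2, whose slope on H was negative, had a slope of 0.25 on C less O (unadjusted p = 0.0306, adjusted p = 0.909 from limma).

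RAD51C had the smallest p of the members in each. Its slope on the mean of C and H less O was 0.42 (95% interval 0.20 to 0.64, unadjusted p = 0.000665, adjusted p = 0.448 from limma, 23 lines), and did not pass. A positive slope here means a higher level where standardised AUC0 was higher for C and H than for O. Per SD of AUC0, the RAD51C slopes on the single drugs were 0.20 for C, 0.17 for H and −0.25 for O. None of these had an unadjusted p under 0.05 (0.166, 0.257 and 0.0879 from limma). The slope on the mean of C and H less O was 0.35 in the DLBCL lines alone and 0.43 in the MM lines alone. It was between 0.33 and 0.47 with each line left out, LP-1 giving the lowest. In LP-1, the line of the lowest RAD51C, the AUC0 values for C and H were 308 and 316, and that for O was 187, the highest in the panel. In U-266, the line of the highest, it was 376, 325 and 90. Other lines went less with the slope: KMS-12-BM, the second lowest at 8.13, had 328, 331 and 112 and was labelled resistant to C and H, and HBL-1, level with U-266 at 10.37, had 226, 272 and 85 and was labelled intermediate for all 3 drugs. XRCC6, WEE1 and FANCL had slopes of 0.13, 0.27 and 0.20 in the same test, and FANCF had −0.22.

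In the lines labelled resistant against those labelled sensitive, 8 and 8 for C and O and 9 and 9 for H, no member and no probe-set passed. At an unadjusted p under 0.05 there were 0 members for C, 2 for H and 1 for O, where 4.44%, 6.14% and 3.54% of all probe-sets were. WEE1 was 0.63 higher in the lines resistant to H (unadjusted p = 0.0096, adjusted p = 0.715 from limma) and DDB2 was 0.82 lower, with a difference of −0.82 (unadjusted p = 0.0232, adjusted p = 0.767 from limma). XPC had −0.33 for O. The slopes of the members did not pass a test of difference between the diseases either. Here 1 member for C (ERCC8), 2 for H (XPC and XRCC3) and 1 for O (LIG1) had an unadjusted p under 0.05, where 4.47%, 5.08% and 4.12% of all probe-sets did.

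Among the 90 other repair genes the smallest p values were those of RAD51AP1 (slope −0.60) and RAD54B (0.59) for C, of ALKBH2 (0.66) and SWI5 (0.40) for H, and of TIPIN (−1.22) and EXO1 (−1.21) for O. None passed adjustment (adjusted p between 0.873 and 1 from limma). ALKBH2 repairs alkylated bases directly, and TIPIN and EXO1 act at stalled forks and at resected ends.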

How the data were processed

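RNA of each of 26 untreated lines was hybridised to 1 Affymetrix HG-U133 Plus 2.0 array. The deposited values are log2 values, made by the authors from the scanner files by RMA (package affy, R 3.0.1 in the submitters' processing notes), which corrects the background, brings arrays to a common distribution and summarises each probe-set. The lowest value is 2.41 and the highest 15.09, and array medians lie between 5.65 and 5.72. Which arrays were normalised together is not given in the sources used here.

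Gene symbols were those of GEO's platform annotation, with 41097 probe-sets of 1 symbol, 1801 of several and 11721 of none, and 62 controls were left out. Each gene was its probe-set of the highest mean, and probe-sets with several symbols or none were tested unnamed, giving 33297. Differences, slopes and interactions came from limma 3.58.1 (R 4.3.3), disease being a term wherever AUC0 or a resistance class entered, and adjusted over all probe-sets by Benjamini-Hochberg at a threshold of 0.05. The fits were tested on simulated data. Standardised AUC0 was centred per disease and divided by the pooled SD. AUC0 and classes came from the labels. The labels name 2 class tags after cyclophosphamide, of which the second, beside the doxorubicin AUC0, was read as that of doxorubicin. Figures were drawn with matplotlib 3.10.9 in Python 3.11.15.

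All members could be named. Of the 90 other repair genes, those named are the 10 of the smallest p that passed between the diseases and the 2 of the smallest p for each drug. The members, lists and tests were chosen with earlier results of these data known. The lists were the 7 roles of the members, 9 lists of other repair genes, proliferation genes, markers of B, plasma, T, myeloid, stromal and endothelial cells, and genes of other tissues, whose medians lay between 3.52 and 5.61. Alternatives were the probe-set of the largest SD, every probe-set on its own, no probe-sets with a mean under 5, arrays centred on their medians, another prior, MC-116 and AMO-1 or KMS-12-PE left out, proliferation as a covariate, each disease alone, ranks of AUC0, both drugs in 1 fit, and each line left out in turn.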

Additional observations from a re-analysis of the deposited data

How the results depend on the processing

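Between the diseases, 12 members were called, and 7 with a trended and robust prior, 7 with the proliferation mean as a covariate, and 7 to 11 with 1 line left out. Arrays centred on their medians gave 9, the probe-sets of the largest SD 11, the lines without KMS-12-PE, a sister of KMS-12-BM, 9, and those without MC-116 and AMO-1 10. No called difference turned its direction under any of these alternatives. For the drugs no member was called under any alternative. At most 3 probe-sets were, for H classes with 1 line left out. The count of low pairs was 3, and 0 at a depth of 3 log2 units, 4 at 1.5 and 40 without the condition on the array median. The causes were not tested. No paired analysis was possible because each line is a separate culture and replicate numbers only follow the accession order. The number of lines and, for genes near the array medians, their signal over background limit these values. With 1 array per line, p values set a difference or slope against the spread between lines. That spread cannot be split from variation between cultures or arrays.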
